A study of Caenorhabditis elegans with 2 samples.

Results

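Chromatin immunoprecipitation followed by sequencing (ChIP-seq) recovers the DNA held by a chosen protein. The list called on both replicates together held 7443 peaks on the ce11 build of the nematode Caenorhabditis elegans, of which 1447 lay on the X chromosome, and those 1447 are described here. Peaks were taken by chromosome alone and not by their signal, but X was chosen as the part with earlier results of these data known. The X peaks were set against the 5973 peaks of the 5 autosomes in the same list, while 23 mitochondrial peaks were not used. The series held 1 group of 2 biological replicates, made from whole late embryos, males and females pooled, that carried an unc119(ed3) mutation and a transgene of fkh-10 tagged with TY1, EGFP and FLAG together with an unc119 rescue. The labels name strain OP337 and insertion wgIs377, whose numbers do not match, and identity rests on the label eGFP-FKH-10 alone. DNA fragments of 150 to 350 bp had been selected, the cells that hold a given signal are not known, and a strong signal in few cells cannot be told apart from a weak one in many. No library from an untagged strain was analysed here, so a summit is a place of peak signal and is not assigned to binding of FKH-10.

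FKH-10 is a forkhead protein, a transcription factor with a winged-helix domain that contacts DNA. The X chromosome of this worm is present as a pair in hermaphrodites and as a single copy in males. In hermaphrodites a dosage compensation complex, related to condensin, is recruited to X at special sites known as recruitment elements and from there spreads along the chromosome to lower its transcription. Those sites share a short GC-rich DNA motif whose core holds the word GCGCAGGG. X is also known for carrying many of the worm's tRNA genes, the short genes read by RNA polymerase III from promoter elements inside the gene, called the A box and the B box.

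The recruitment word was found beside several of the highest peaks on X, and those sites are shown first. The lines below give all 13 copies that lay wholly within 100 bp of the summit of a thresholded X peak (a peak of the deposited list that passed the irreproducible discovery rate, IDR). That list held 4.82% of the nuclear pooled peaks, 98 of them on X, and they are those of highest pooled signal. They come from 10 peaks and are ordered by pooled signal, each 40 bases long, read 5′ to 3′ on the strand that reads the word, from the RefSeq genome sequence of assembly WBcel235, the same build as ce11. Capitals mark the word, and each name gives the gene that holds the summit or the nearest protein-coding 5′ end.
pks-1 exon (chrX:5429574-5429613, plus strand): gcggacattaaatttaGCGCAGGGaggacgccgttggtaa
near W02H3.3, copy 1 (chrX:11094109-11094148, minus strand): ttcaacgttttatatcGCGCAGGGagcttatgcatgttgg
near W02H3.3, copy 2 (chrX:11094210-11094249, minus strand): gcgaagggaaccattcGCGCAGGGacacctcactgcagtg
near F22H10.2 (chrX:16682156-16682195, minus strand): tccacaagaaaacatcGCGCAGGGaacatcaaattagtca
mom-1 intron, copy 1 (chrX:6296532-6296571, plus strand): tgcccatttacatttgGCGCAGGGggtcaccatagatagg
mom-1 intron, copy 2 (chrX:6296560-6296599, plus strand): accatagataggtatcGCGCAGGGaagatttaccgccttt
nspc-17 promoter window (chrX:14525884-14525923, minus strand): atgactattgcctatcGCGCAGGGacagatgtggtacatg
near F20B6.9 (chrX:4209250-4209289, minus strand): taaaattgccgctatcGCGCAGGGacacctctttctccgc
upstream of xol-1, copy 1 (chrX:8036385-8036424, minus strand): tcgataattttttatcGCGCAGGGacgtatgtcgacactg
upstream of xol-1, copy 2 (chrX:8036419-8036458, plus strand): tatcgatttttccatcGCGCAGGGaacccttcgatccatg
ins-39 promoter window (chrX:1345040-1345079, plus strand): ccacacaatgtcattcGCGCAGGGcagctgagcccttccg
Y41G9A.17 intron (chrX:2997107-2997146, minus strand): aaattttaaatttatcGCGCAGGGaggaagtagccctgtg
near gtr-1 (chrX:806658-806697, plus strand): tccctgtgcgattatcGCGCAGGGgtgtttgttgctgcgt
The centres of the copies lay 1 to 82 bp from their summit. In 11 of the 13 the 2 bases before the word were TC, in 9 of them the 3 bases were ATC, and in 10 of the 13 the base after it was A.

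Across all pooled peaks the word occurred within 100 bp of the summit, on either strand, at 19 of 1447 X peaks (1.31%, 95% Wilson interval 0.842 to 2.04) and at 6 of 5973 autosomal peaks (0.100%). Windows of the same length laid end to end over the chromosomes held it at 0.0851% on X and at 0.0553% on the autosomes. The interval covers counting error only, and peaks of 1 pair of libraries are not independent replicates, so no p-value is given here or below. Of the thresholded peaks, 10 of 98 on X held the word (10.2%, 5.64 to 17.8) and 1 of 260 on the autosomes (0.385%, 0.0679 to 2.15). The 19 X peaks had a median pooled signal of 40.3, in height units of the authors' caller on an unstated scale, and the X peaks without the word had one of 19.5. The 6 autosomal peaks with the word had a median of 20.1, near the 19.1 of the autosomal peaks without it.

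Seen from the word, 23 of its 81 copies on X (28.4%, 19.7 to 39.02) lay within 100 bp of a pooled summit, and 6 of its 233 copies on the autosomes did (2.58%, 1.19 to 5.50), while the density of peaks was 81.7 per Mb on X and 72.4 per Mb on the autosomes. Most copies on X thus had no pooled summit beside them. The bases beside the word differed between these sets: TC preceded it in 12 of the 23 copies near an X summit (52.2%), in 7 of the 58 other copies on X (12.1%) and in 6 of the 233 copies on the autosomes (2.58%). An A followed it in 14 of the 23 (60.9%), in 20 of the 58 (34.5%) and in 79 of the 233 (33.9%). Of the 12 copies with TC near an X summit, 11 were among the 13 copies at thresholded peaks shown above. So were 10 of the 14 followed by A, so these differences lay mostly at the thresholded peaks. Words shifted by 1 base gave like counts, with CGCGCAGG at 19 X summits and 11 autosomal ones, and CGCAGGGA at 16 X summits and 12 autosomal ones. GCAGGGAG, shifted further, was found at 9 X summits (0.622%) and 27 autosomal ones (0.452%). These related words overlap the first one and were chosen after its values were seen. The first word was itself chosen with earlier results of these data known.

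Both replicates showed the word among their own strongest peaks. Of the 100 strongest nuclear peaks of replicate 1, 6 of the 26 on X held it (23.1%, 11.03 to 42.1) and 0 of the 74 on the autosomes (interval up to 4.93%). Of the 100 strongest of replicate 2, 5 of 24 on X (20.8%, 9.24 to 40.5) and 1 of 76 on the autosomes held it (1.32%, 0.233 to 7.08). Among the strongest 500 the counts were 11 of 132 on X and 1 of 368 on the autosomes in replicate 1, and 9 of 134 on X and 1 of 366 on the autosomes in replicate 2. Over the whole relaxed lists the shares on X were 0.470% in replicate 1 and 0.475% in replicate 2, against 0.0966% in replicate 1 and 0.0816% in replicate 2 on the autosomes.

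The peaks with the word were spread along X, with 13 in the left and 6 in the right part when the chromosome was divided at its middle, and at least 1 in each of 10 equal parts. Of the 10 thresholded ones, 5 were intergenic, 2 lay in introns, 2 in promoter windows and 1 in an exon, and none was within 100 bp of a small RNA gene. The highest lay in an exon of pks-1, which encodes a polyketide synthase, with signals of 36.8 in replicate 1 and 45.9 in replicate 2 and a pooled signal of 84.5. The next lay 3976 bp from the 5′ end of W02H3.3, at 32.8 and 45.5 in replicates 1 and 2, and the third lay 2559 bp from that of F22H10.2, at 38.1 and 40.5. The peak in an intron of mom-1, which encodes the Porcupine protein needed to secrete Wnt ligands, had 40.2 and 32.7.

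A further one of these peaks lay 4914 bp upstream of xol-1, the switch gene at the top of the sex determination and dosage compensation pathway, and carried the word on both strands. Its signal was 23.4 in replicate 1 and 36.3 in replicate 2, and 51.2 pooled. The peak 615 bp upstream of ins-39, an insulin-like peptide gene, had 22.9 and 25.8. The other 4, at nspc-17, F20B6.9, Y41G9A.17 and gtr-1, had pooled signals of 53.9, 52.6, 44.4 and 40.3. The 9 peaks with the word that were not thresholded had pooled signals from 16.6 to 30.9 and lay closer to genes, a median of 903 bp from the nearest protein-coding 5′ end, against 3006.5 bp for the 10. They included peaks 27 bp upstream of jkk-1, a kinase gene of the JNK pathway, 63 bp upstream of apm-3, an adaptor protein gene, and 188 bp upstream of gcc-1. Except for those named by rank, family or list, the genes at these peaks were named after their values were seen. Both replicates matched 62.9% of all nuclear pooled peaks, and 18 of the 19 X peaks with the word. These 18 were all 10 thresholded ones, which are among the X peaks of highest pooled signal, and 8 of the other 9.

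**Figure D1:**
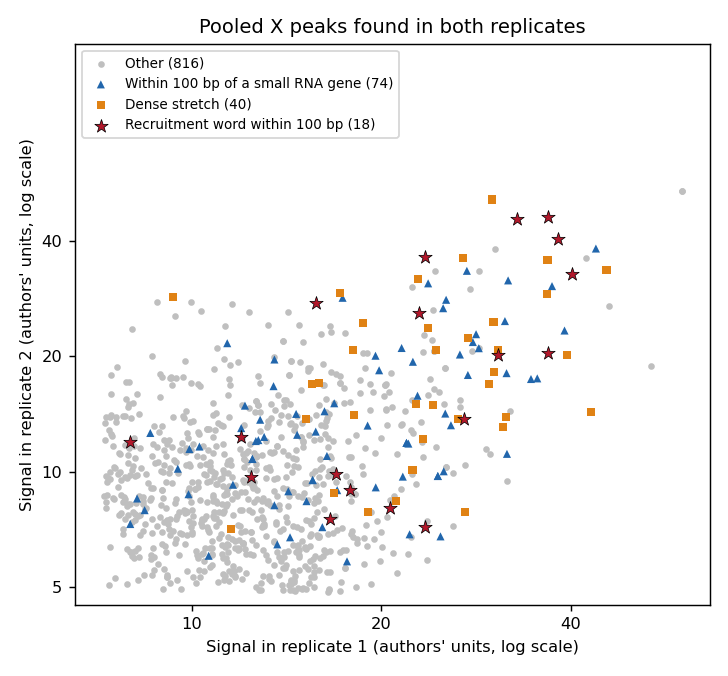
Signal of the pooled X peaks that overlapped a peak of each replicate, in replicate 1 (x axis) and replicate 2 (y axis), both in the authors' units on log scales. Stars are the 18 peaks with the recruitment word, squares the 40 of the dense stretch, triangles the 74 at small RNA genes and grey points the other 816; 10 stars lie among the higher values, with at least 15.7 in replicate 1 and 13.8 in replicate 2.

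Other words were less different between X and autosomes, or differed with the bases of the chromosomes. The forkhead core GTAAACA was within 100 bp of 3.39% of X summits (2.57 to 4.45) and 2.04% of autosomal ones (1.71 to 2.43), and in 3.15% and 2.08% of all windows of X and of the autosomes. ATAAACA was at 4.70% of X summits and 4.10% of autosomal ones, below its shares of all windows, 6.19% on X and 4.58% on the autosomes. At the 98 thresholded X peaks GTAAACA was found at 1 and ATAAACA at 2. Each was found at 4 of the 260 thresholded autosomal peaks. The GA repeat GAGAGAGA was at 3.39% of X summits and 4.91% of autosomal ones, and in 1.12% of X windows and 1.36% of autosomal ones. Of the thresholded peaks, 7 of 98 on X and 26 of 260 on the autosomes held it. Every word was searched on both strands, and a match or its absence describes these windows and says nothing of which factor was there.

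Peaks were somewhat denser on X than on the autosomes as a whole. X held 19.5% of the 7420 nuclear peaks (18.6 to 20.4) on 17.7% of the nuclear bases, or 81.7 peaks per Mb. The autosomes together had 72.4 per Mb, and singly 80.7 on I, 76.2 on II, 84.4 on III, 73.1 on IV and 54.96 on V, so X lay inside their range. Without a dense stretch near its right end, described below, X had 1402 peaks and 79.3 per Mb. The share of X was larger among the highest peaks than over the whole list. It was 28% of the 100 highest nuclear peaks of the pooled list (20.1 to 37.5), 27.2% of the highest 500 and 23.6% of the highest 2000. The replicates alone gave 26%, 26.4% and 21.9% at the same depths in replicate 1, and 24%, 26.8% and 22.2% in replicate 2. Over the whole relaxed lists, 18.3% of the nuclear peaks of either replicate were on X (5108 in replicate 1 and 5473 in replicate 2). Without the dense stretch of X and 2 like it on I and IV, the share of X among the highest 500 was 27.2% in the pooled list, 24% in replicate 1 and 27% in replicate 2.

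**Figure D2:**
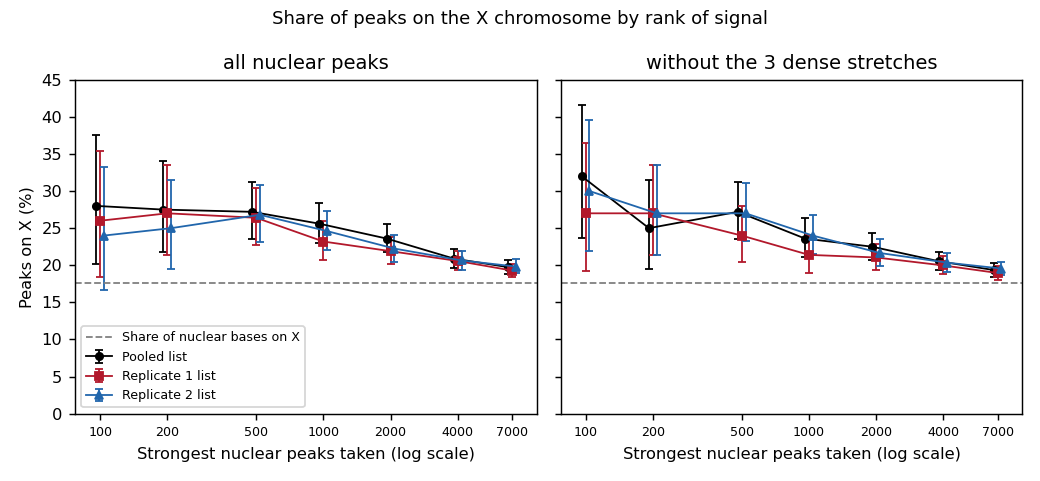
Share of peaks on X (y axis, %) among the strongest nuclear peaks (x axis, number taken, log scale) in the pooled list and in each replicate's list, with 95% Wilson intervals that cover counting error only; the dashed line is the share of nuclear bases on X (17.7%). All 3 lists lie above the line at each number taken, with and without the 3 dense stretches, differ in course up to 500 peaks and come closer to it beyond that.

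The difference in height lay in the upper tail, since the medians were close. The pooled signal on X ran from 16.2 to 112.01, with a median of 19.5 and quartiles of 17.5 and 23.7. On the autosomes the median was 19.1 and the upper quartile 22.4, and single autosomes had medians from 18.8 to 19.4. The value that 10% of peaks exceeded was 32.0 on X and 28.4 on the autosomes. Of the nuclear pooled peaks 4.82% were in the thresholded list, namely 98 on X (6.77%, 5.59 to 8.19) and 260 on the autosomes (4.35%, 3.86 to 4.90). The lowest thresholded X peak had a signal of 36.58 and the highest that was not had 36.51. Single autosomes ranged from 3.00% on II to 7.07% on I, which was above X. Without the dense stretches the share was 5.71% on X (4.61 to 7.05), 3.64% on the autosomes and 3.72% on I. With the small RNA gene peaks also left out, it was 4.10% on X (3.16 to 5.32) and 2.98% on the autosomes (2.57 to 3.45), and III, at 3.90%, was near X.

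The 98 thresholded X peaks fell into a few kinds. When each was counted once, in this order, 18 lay in the dense stretch, 26 within 100 bp of a small RNA gene, 10 beside the recruitment word and 20 in other promoter windows, which here reach 1000 bp before and 500 bp past a protein-coding 5′ end. The remaining 24 had none of these features. Of the 20 highest X peaks, which ran from 56.9 to 112.01 in pooled signal, 6 were at small RNA genes, 4 in the dense stretch and 4 beside the recruitment word, and all 20 were matched by a peak among the 405 strongest of each replicate.

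The highest peak of X lay 544 bp from the start of ftt-2, the gene of a 14-3-3 protein that binds phosphorylated partners, inside the annotated ncRNA gene F52D10.7 (summit at X 11605963). Its signal was 59.96 in replicate 1 and 53.9 in replicate 2, where it was the 17th and the 13th strongest peak. The next, at C04A11.t1, a leucine tRNA gene, had 43.8 and 38.1 in replicates 1 and 2. A peak 745 bp upstream of sms-2, a sphingomyelin synthase gene (X 949628), had 42.3 and 36.1. These 3 were high in both replicates. Others were uneven: the peak 2499 bp from the 5′ end of ZK899.6 had 53.6 in replicate 1 and 18.8 in replicate 2, and that 6060 bp upstream of K02D3.1 had 45.99 and 26.99. The peak 7164 bp upstream of mig-15, a kinase gene acting in cell and axon migration, had 30.3 and 38.0, and that 191 bp upstream of T13C5.6, inside the ncRNA gene C14F11.14, had 28.6 and 33.3.

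**Figure D3:**
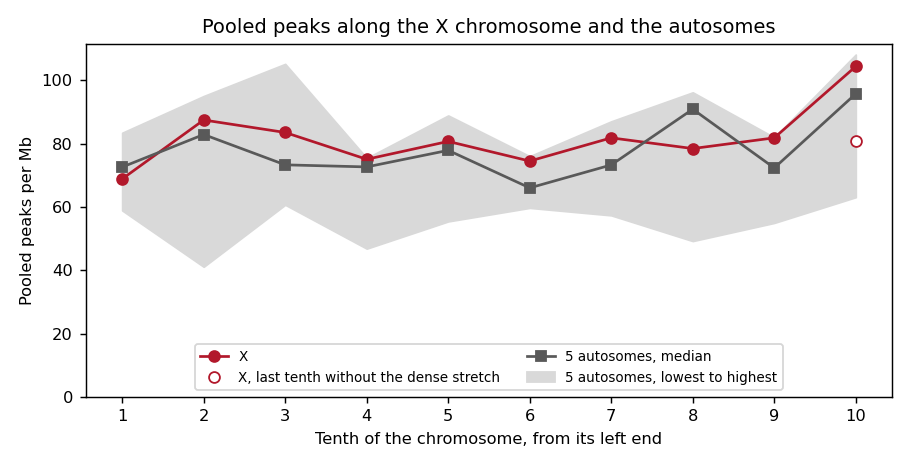
Pooled peaks per Mb (y axis) in 10 equal parts of each chromosome from its left end (x axis), for X (circles) and for the 5 autosomes (squares, median; grey band, lowest to highest). X lies between 68.9 and 104.4 per Mb, inside the autosomal band in all 10 parts, and its last part is at 80.8 without the dense stretch (open circle).

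Along X the peaks were spread rather evenly. In 10 equal parts of 1.77 Mb from the left end, X held 122 to 185 peaks, lowest in the first and highest in the last, which had 140 without the dense stretch. Thresholded peaks numbered 14 in the first part, 24 in the last (6 without the stretch) and 6 to 11 in the others. Neighbouring summits lay a median of 6930.5 bp apart on X, and 6870 to 10520 bp on single autosomes. The longest interval without a pooled peak ran from 86983 to 201456 near the left end (114 kb, 52.1% of it repeat-masked, against 30.6% of all X bases), from Y73B3A.4 to Y73B3B.3, followed directly by a second one to 299611, near gcp-2.1 (98.2 kb, 50.2% masked). The relaxed lists held 15 and 10 summits of replicates 1 and 2 in the first of these and 3 and 6 in the other. A further interval, from cas-1 to C30E1.4 (16819369 to 16928297, 109 kb), was 27.04% masked and held 24 and 20.

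A stretch of 38.2 kb near the right end of X, from the end of taf-3 to that of let-2, held many peaks side by side. It had 45 summits, or 1179 per Mb, a median of 727 bp apart, whereas the 20 kb to its left held 3 and the 20 kb to its right 1. The next densest window of that length lay around F13D11.3 and hbl-1, which encodes a zinc-finger factor of the heterochronic pathway, and held 12. X without the stretch had 79.3 peaks per Mb. The pooled signal in the stretch had a median of 32.7, against 19.5 on the rest of X, and 18 of the 45 were thresholded (interval 27.02% to 54.5%). Both replicates held it: 55 summits of replicate 1 with a median signal of 19.96, against 9.69 on the rest of X, and 54 of replicate 2 with one of 14.1, against 6.89. The bases of the stretch were 34.1% G and C, against 35.2% on X, and 37.4% repeat-masked, against 30.6%, and 0 of its summits had the recruitment word or a small RNA gene within 100 bp. Neighbouring summits this close may share a replicate peak, so its 45 summits are not separate observations.

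The stretch crosses genes of different kinds, and its summits lay inside and between them. The gene for acetylcholinesterase ace-1, which breaks down the transmitter acetylcholine, held 7 summits and the highest of the stretch, in an exon at X 16369164, with 30.01 in replicate 1, 51.2 in replicate 2 and 83.8 pooled. The nuclear hormone receptor gene nhr-28 held 6, up to 50.8, and the end of taf-3, a gene for a subunit of the general transcription factor TFIID, held 3, up to 54.6. In sur-7, which encodes a cation transporter known from Ras signalling, there were 3, up to 55.6, and let-2, a type IV collagen gene of basement membranes, had 1 at 20.5. The ncRNA genes C11G6.5 and W09B12.2 held 1 each, while C11G6.6, W09B12.4, F01G12.19, F01G12.15 and the tRNA gene F01G12.t1 held 0. By class 19 of the 45 were intergenic, 11 in exons, 8 in introns, 6 in promoter windows and 1 in another gene.

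**Figure D4:**
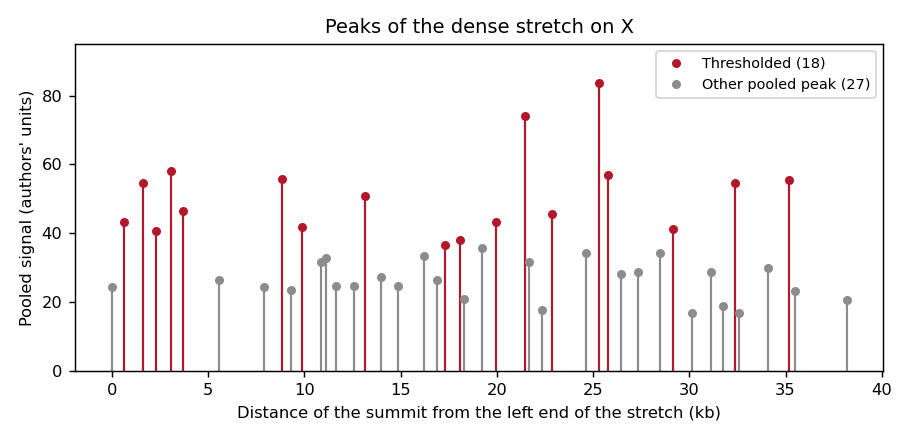
Pooled signal in the authors' units (y axis) of the 45 peaks of the dense stretch on X against the distance of their summit from its left end in kb (x axis); red marks the 18 thresholded peaks and grey the other 27. Peaks above and below the threshold alternate over the whole 38.2 kb, and the highest, 83.8, lies in ace-1.

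Summits on X were less often in promoter windows and exons and more often intergenic than those on the autosomes, and X bases themselves are spread that way. X has 154 protein-coding genes per Mb and the autosomes 209. Promoter windows held 392 X summits (27.1%, 24.9 to 29.4) and 31.2% of autosomal summits (30.1 to 32.4), and make up 21.7% of X and 27.2% of autosomal bases, so summits were 1.25 times as frequent there as bases on X and 1.15 times on the autosomes. Exons held 180 X summits (12.4%, 10.8 to 14.2) against 16.04% on the autosomes, 0.644 times their share of bases on X and 0.763 times on the autosomes. Introns held 353 (24.4%) against 28.5% on the autosomes (0.923 times on X and 1.01 times on the autosomes). Intergenic summits numbered 385 (26.6%, 24.4 to 28.9) against 18.9% (17.9 to 19.9), where X is 29.0% and the autosomes 19.8% intergenic (0.917 times on X and 0.952 times on the autosomes). Single autosomes ranged from 1.02 to 1.36 times for promoter windows and from 0.867 to 1.05 for intergenic bases, and X lay inside both ranges; for exons they ranged from 0.669 to 0.827, and X was below. Summits in genes of other kinds lay on the other side of the range, with 51 on X (3.52%, 1.23 times) and 2.58% on the autosomes (0.738 times, single ones 0.548 to 0.896). Without the dense stretch the promoter share on X was 27.5% and the intergenic one 26.1%.

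Among thresholded peaks the promoter share on X was further below that of the pooled autosomes, but inside the range of single autosomes. Of the 98 on X, 24 were in promoter windows (24.5%, 17.04 to 33.9), against 117 of 260 on the autosomes (45%, 39.1 to 51.1). Single autosomes ran from 8 of 35 on II (22.9%) to 48 of 86 on I (55.8%), and on I 46 of the 86 lay in the last of its 10 equal parts. Without its own dense stretch I had 43 thresholded peaks, whose classes were not counted apart. On III, which has no such stretch, 27 of 50 were in promoter windows (54%). The median distance from a thresholded summit to the nearest protein-coding 5′ end was 1951.5 bp on X and 915.5 bp on the autosomes (551 bp on I to 1582 bp on IV), while over all pooled peaks it was 1817 bp on X and 1502 bp on the autosomes, and over all bases 1928 bp on X and 1554 bp on the autosomes. Intergenic peaks made up 22.4% of the thresholded ones on X (15.3 to 31.7) and 13.8% on the autosomes (10.2 to 18.6), with 6.98% on I and 28.6% on II, so that X lay inside this range too. Only 5 were in exons on X, of which 4 were in the dense stretch and the other was that in pks-1. Of the 22 intergenic ones on X, 8 were in the dense stretch. Without it X had 80 thresholded peaks, of which 22 were in promoter windows and 14 were intergenic.

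**Figure D5:**
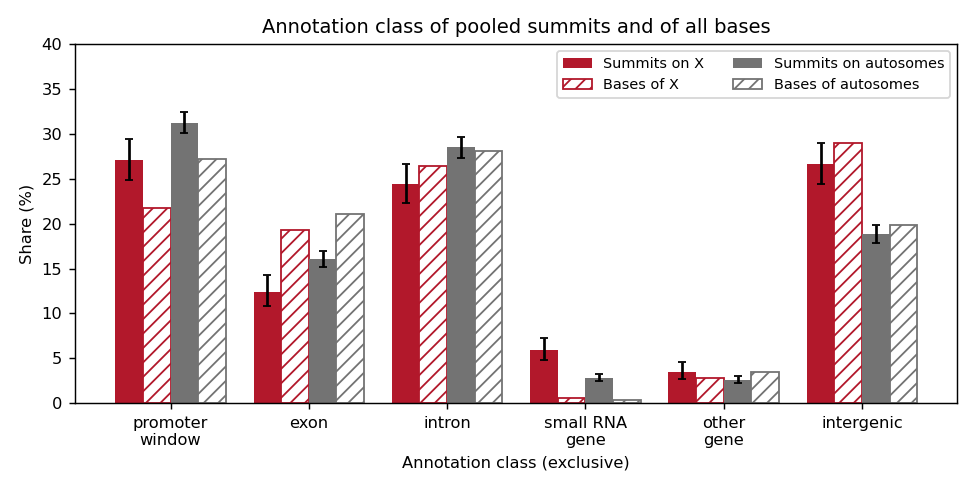
Share in % (y axis) of pooled summits (filled bars, with 95% Wilson intervals for counting error) and of all bases (hatched bars) in 6 exclusive annotation classes (x axis), for X (red) and the autosomes (grey). Promoter windows hold 27.1% of X summits and 31.2% of autosomal ones, small RNA genes 5.94% and 2.83%, and intergenic bases 26.6% and 18.9%.

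Small RNA genes, which here are tRNA, snoRNA, snRNA, rRNA and miRNA genes, had a summit within 100 bp at 86 X peaks (5.94%, 4.84 to 7.28) and at 2.83% of autosomal peaks (2.44 to 3.28), 9.83 times the share of such bases on X and 7.81 times on the autosomes. Single autosomes ran from 5.02 to 9.996 times, so X lay inside their range. Nearly all of these on X were at tRNA genes, with 82 summits, a median pooled signal of 30.03 and 26 of them thresholded. On the autosomes tRNA genes had 91 summits with a median of 25.3, of which 14 were thresholded. Counted by gene, 86 of 276 tRNA genes on X had a summit (31.2%, 25.99 to 36.9), and 96 of 336 on the autosomes did (28.6%, 24.005 to 33.6), so the intervals overlapped. The snoRNA genes went the other way, with 2 of 33 on X (6.06%, 1.68 to 19.6) and 59 of 313 on the autosomes (18.8%, 14.9 to 23.6), and 0 of the X ones thresholded. At miRNA genes there was a summit at 1 of 74 on X and 10 of 187 on the autosomes.

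Most tRNA genes occur in near-identical copies, among which reads can be placed on the wrong one, so values of single tRNA genes are uncertain. Of the X tRNA genes whose sequence is the only one of its kind in the genome 10 of 57 had a summit (17.5%, 9.82 to 29.4), of those with 2 to 5 copies 12 of 31 (38.7%) and of those with 6 or more 64 of 188 (34.04%, 27.6 to 41.1). The autosomal shares were 19.8%, 39.2% and 29.6%. By amino acid, among X genes, the highest shares with a summit were 5 of 7 for cysteine, 6 of 12 for aspartate and 3 of 6 for asparagine, and the lowest 2 of 14 for valine and 3 of 18 for lysine. The autosomal counts were 5 of 6 for cysteine, 5 of 15 for aspartate, 3 of 14 for asparagine, 2 of 17 for valine and 10 of 28 for lysine. The highest tRNA peaks of X are shown with the start of their B box, GGTTCGA, in capitals, on the plus strand from the same assembly.
C04A11.t1, leucine (chrX:13665555-13665673): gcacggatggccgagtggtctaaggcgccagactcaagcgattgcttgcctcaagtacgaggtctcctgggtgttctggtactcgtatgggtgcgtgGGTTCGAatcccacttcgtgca
R04D3.t2, valine (chrX:13307034-13307106): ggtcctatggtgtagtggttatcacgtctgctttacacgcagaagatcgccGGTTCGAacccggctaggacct
The word GGTTCGA was within 100 bp of 4.56% of X summits and 2.65% of autosomal ones, and in 1.32% of X windows and 1.48% of autosomal ones. Without the small RNA gene peaks the shares were 1.40% of X summits and 1.57% of autosomal ones, near those of the windows. The peak at R04D3.t2 had 37.3 in replicate 1 and 30.4 in replicate 2. Those at M02F4.t1 and M02F4.t2 (glycine and glutamate, 1 peak), T28B4.t1 (phenylalanine), C28G1.t1 (glutamate) and F15G9.t1 and F15G9.t2 (alanine, 1 peak, inside him-4, the hemicentin gene) had pooled signals of 61.8, 60.4, 60.4 and 57.2.

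Of all nuclear protein-coding genes 13.3% had a summit in their promoter window, namely 403 of 2731 on X (14.8%, 13.5 to 16.1) and 2247 of 17242 on the autosomes (13.03%, 12.5 to 13.5), with 9.51% to 17.2% on single autosomes. On X 23 genes had 2 or more, and 30 had a thresholded summit. Besides ftt-2 and sms-2, the highest of these, chosen after their values were seen, included ain-1, a gene of the microRNA silencing complex (27.7 in replicate 1 and 29.9 in replicate 2), kin-29, a salt-inducible kinase gene (25.3 and 18.6), apa-2, a clathrin adaptor gene (24.1 and 21.99), and spc-1, the alpha-spectrin gene (20.4 and 16.96). A peak between sec-15, an exocyst gene, and C28G1.2 had 31.8 and 31.5 but lay at the tRNA gene C28G1.t1.

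Genes of sex determination and dosage compensation on X were examined because X carries several of the signals that count it. On the autosomes 5 of 15 had a promoter summit, against 13.03% of all genes there. Of 6 on X, 1 did, near the 14.8% of all X genes. It was ceh-39, a ONECUT homeobox gene that is an X signal element, with a summit 212 bp upstream at 24.2 in replicate 1 and 16.4 in replicate 2, thresholded at 37.5. The gene fox-1, an X signal element for an RNA-binding protein, had 4 summits in its body, up to 25.6, and none at its start. For sdc-1 there was 1 in the body. The genes sdc-2, whose product brings the dosage compensation complex to X, sex-1 and xol-1 had 0 in the body or promoter window, although the peak with the recruitment word lay upstream of xol-1, outside that window.

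Families and tissue lists gave small counts, to be read against the 14.8% of all X genes. Genes of neurons and synapses had a promoter summit at 7 of 24 on X and 3 of 31 on the autosomes. After ace-1 the highest were syd-2, the liprin gene of presynaptic assembly (26.03 in replicate 1 and 9.89 in replicate 2), unc-18, a gene of synaptic vesicle release (21.5 and 13.2), and lim-4, a LIM homeobox gene (11.4 and 15.8). Nuclear hormone receptor (nhr) genes had 8 of 23 on X and 20 of 246 on the autosomes, led by nhr-255 (51.0 pooled, at a leucine tRNA gene), nhr-14 (48.2), nhr-48 (34.3) and nhr-28 (32.7, in the dense stretch). Ligand-gated ion channel (lgc) genes had 5 of 18 on X and 1 of 38 on the autosomes, the highest being lgc-47 (31.4) and lgc-4 (24.6), both below the threshold. For unc genes the counts were 5 of 16 on X and 21 of 78 on the autosomes.

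The other lists and families gave counts on either side of the share of all X genes. Muscle genes had 2 of 12 on X and 4 of 22 on the autosomes, those on X being the troponin T genes tnt-2 (28.9) and mup-2 (18.2), both found in replicate 2 and in no peak of replicate 1. Intestinal genes had 0 of 11, epidermal and cuticle genes 0 of 13 and the forkhead family 0 of 4 on X, against 2 of 13, 6 of 23 and 2 of 11 on the autosomes. Cuticle collagen (col) genes had 1 of 27, col-186 (23.02), and homeobox (ceh) genes 1 of 18, ceh-39. Neuropeptide genes had 1 of 13 for flp (flp-18, 18.4) and 3 of 19 for nlp (nlp-76, 23.7, the highest). Families above that share on small numbers were lin (3 of 6 on X and 15 of 41 on the autosomes), egl (2 of 5 on X and 4 of 22 on the autosomes), dpy (2 of 6 on X and 2 of 19 on the autosomes), cyp (2 of 7 on X and 3 of 67 on the autosomes) and pqn (2 of 8 on X and 14 of 48 on the autosomes). The remaining families on X held 1 gene with a summit or none. The highest among all of these included egl-17, a fibroblast growth factor gene, at 49.2 and at a tRNA gene, dpy-23 (32.2), rpl-11.2, a ribosomal protein gene (29.6), and ugt-50 (27.8). With so few genes a list, differences between these shares were not tested.

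Some X genes held several summits within their span. After ace-1 with 7, chosen like the rest of this paragraph after the counts were seen, nhr-28, lin-14, ldb-1, rgs-6 and unc-7 had 6 each, and daf-12 and tsp-14 had 5 each. In lin-14, a heterochronic gene of 20.3 kb, they reached 37.8, in unc-7, an innexin gene of gap junctions of 26.9 kb, 29.4, and in daf-12, a nuclear receptor gene of developmental timing of 31.0 kb, 32.0. Per kb of gene, nhr-28 had 1.28 and ace-1 1.08 summits, both in the dense stretch. Outside it ugt-50 had 0.980 and Y41G9A.17 had 0.870, while the longer lin-14 had 0.295 and daf-12 had 0.161.

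Most X peaks were found again in each replicate's relaxed list, by an overlap of at least 1 bp. Replicate 1 matched 86.4% of nuclear pooled peaks, namely 1256 on X (86.8%, 84.96 to 88.4) and 86.3% on the autosomes (85.4 to 87.1). Replicate 2 matched 76.0%, namely 1130 on X (78.1%, 75.9 to 80.1) and 75.5% on the autosomes (74.4 to 76.6). Both matched 62.9%, namely 948 on X (65.5%, 63.03 to 67.9) and 62.3% on the autosomes (61.04 to 63.5). The relaxed lists are long, with 288 and 309 peaks per Mb of X, so overlap partly comes with their length. Of the other X peaks 308 were matched in replicate 1 alone, 182 in replicate 2 alone and 9 in neither, and their median pooled signals were 18.1, 18.1 and 17.4, against 21.4 for those in both. All 98 thresholded X peaks and 256 of the 260 autosomal ones were in both. On X the thresholded peaks are those of highest pooled signal. That signal was called on both replicates together, so this is not separate support.

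Strong matches in both replicates were few on X and on the autosomes. Overlap with the strongest 500 peaks of both replicates was found for 62 X peaks (4.28%, 3.36 to 5.45) and 2.61% of autosomal ones (2.24 to 3.05), and for 45 X peaks without the dense stretch (3.21%, 2.41 to 4.27). The matching peak had a median rank of 3999 in replicate 1 for X and 4911 for the autosomes, and in replicate 2 one of 4570 for X and 5762 for the autosomes. Signals of the 2 replicates were only weakly related across peaks: Spearman's rho was 0.251 over the 948 X peaks in both, 0.191 without the dense stretch and 0.131 over 3720 autosomal peaks. Peaks share libraries and control and were chosen for pooled signal, so these values describe the lists and have no p. The 19 peaks with the recruitment word were matched in both replicates except for 1, at alh-13, which was in replicate 2 alone.

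In the pooled list, summits on X were richer in G and C than their surroundings. Within 100 bp the median was 40.3% on X and 38.8% on the autosomes, while windows 500 bp away had 34.3% on X and 35.6% on the autosomes, and 66.0% of X summits and 60.3% of autosomal ones were above their flanks. On single autosomes the summit median ran from 36.8% to 40.3%, so X lay at its upper end. The summit base was repeat-masked at 27.2% of X peaks and 34.0% of autosomal ones, below the 30.6% of all X bases and the 36.8% of all autosomal bases. The strongest peaks of the replicates differed in this respect, over as many peaks as the pooled list holds. In replicate 1 the summit median was 34.3% on X and 34.3% on the autosomes, and all X bases are 35.2% G and C. In replicate 2 it was 42.8% on X and 41.8% on the autosomes. The higher G and C at X summits was thus not seen in the strongest peaks of replicate 1. Whether base composition has a part in the other differences was not tested.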

How the data were processed

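The series gives ChIP-seq peaks of 2 libraries labelled eGFP-FKH-10. The authors called, per the names of the deposited lists, relaxed lists of peaks and background per replicate (27900 and 30000 peaks) and on both together, and a list thresholded by the irreproducible discovery rate. The labels name the same control for both replicates. The sources used here give no aligner, caller or read depth. The deposited signal, in column 7, is the caller's height on an unstated scale, and the deposited −log10 q-value ran from 0.0181 to 2.25 on X and selected nothing. Every X peak is 336 bp wide. Summits (start plus offset, 1-based ce11) were placed on Ensembl release 115 genes and RefSeq bases of WBcel235. Classes are exclusive, in the order small RNA gene (100 bp), promoter window, exon, intron, other gene, intergenic. Shares have 95% Wilson intervals; 1 group allows no test between conditions, and none was run. The peaks were taken by chromosome alone, but the choice of X as the part, the lists and the words was made with earlier results of these data known. Genes named are those nearest the 20 highest X peaks, all X dosage genes, up to 4 per list, those of the dense stretch and the ends of the 3 longest peak-free intervals; others are marked. Of 187 listed genes 185 matched. Class and overlap counts were tested on simulated data and recovered. Tools were matplotlib 3.10.9, scipy 1.17.1, pandas 2.3.3, numpy 2.4.6 and Python 3.11.15.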

Additional observations from a re-analysis of the deposited data

How the results depend on the processing

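Of 110 recomputed values of 14 results, 92 stayed within the 95% counting interval of the reported value and 17 moved outside it. The remaining 1 lay outside it with the opposite sign. Among the 92, overlap with replicate 1 also changed sign, but within an interval that spanned 0. Its X share minus the autosomal one was -0.480 percentage points among peaks above the median signal, against 0.529. In the thresholded list X held 27.4% of nuclear peaks and 1.76 times the autosomal density per Mb, against 19.5% and 1.13 times, and among peaks above the median signal 21.1% and 1.25 times. In the thresholded list the promoter share on X minus that on the autosomes was -20.5 percentage points and above the median signal -7.12, against -4.13. The intron share changed sign in the thresholded list, to 0.691 points against -4.08, in 98 and 260 peaks. The small RNA gene share, 3.11 points, was 9.61 in the thresholded list and 1.02 for summits inside such genes. The recruitment word share, 1.21 points, was 9.82 in the thresholded list, 2.07 above the median signal and 0.170 for GCAGGGAG. With the strongest peaks of each replicate alone, overlap with replicate 1, replicate 2 and both was 3.403, 4.98 and 6.07 points higher on X, against 0.529, 2.60 and 3.23. The difference in G and C, 1.49 points, was 2.24 above the median signal. Taking the strongest peaks of 1 replicate in place of the pooled list gave 0 to 0.995 points for G and C and -3.75 to -1.18 points for introns. The cause of these changes was not tested. Without the dense stretch on X, and without all 3, each of the 14 results kept its sign and stayed in its reported interval. Without the stretch on X, however, the new intervals spanned 0 for overlap with both replicates (-0.332 to 5.24) and with replicate 2 (-0.385 to 4.49). For overlap with replicate 1 the interval spanned 0 with and without the stretches, so it showed no direction. The alternatives for the recruitment word, and the joint removal of stretches and small RNA gene peaks, were chosen after the data were examined. No paired analysis was possible because there is 1 group. Peak calls carry no read counts, so the intervals cover counting of peaks only, and both replicates share a control.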
